A study of Rattus norvegicus with 15 samples.

Results

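Transcript levels in 6 libraries of rat bone marrow mesenchymal stem cells (BMSC) after oxygen and glucose deprivation (OGD) were compared with those in 9 libraries of cells kept without it, which together make up all 15 libraries of the series. Membership followed the sample titles alone, whatever hairpin the title names, and all genes of the FPKM table (fragments per transcript, scaled to transcript length and library size) were used. The OGD arm holds BMSC-shLuci+OGD and BMSC-shRac1+OGD, and the undeprived arm holds BMSC-shLuci, BMSC-shRac1 and untreated BMSC, with 3 libraries in each of the 5 groups. The cells, used at passages 3 to 5, came from femoral marrow of the Sprague Dawley strain. shLuci is a lentiviral hairpin against luciferase, which rat cells lack, and shRac1 is a lentiviral hairpin against Rac1. All 6 OGD libraries were infected, whereas 3 of the 9 undeprived libraries were not. OGD ran for 12 h in DMEM without sugar under 1% O2 and was followed by 24 h of R, read here as reoxygenation. Cells without OGD stayed in high glucose DMEM, for which the labels give 10% fetal bovine serum, and they give no serum for the OGD medium. Oxygen, glucose, the change of medium, serum and the later R step can therefore not be told apart in this contrast. No label says that replicates were separate cultures or animals, so p-values measure only the spread between these samples. Those of limma go by the spread within the 5 groups, and differences between the groups of an arm stay out of it.

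Cells that lose oxygen stabilise hypoxia-inducible factor (HIF), which switches on glycolytic enzymes and vessel growth factors, and this response fades once oxygen returns. Immediate early genes such as Fos and Egr1 are transcribed within minutes of serum, growth factors or stress without new protein synthesis, and their transcripts are short-lived. Stress on protein synthesis or on amino acid supply raises the transcription factor ATF4, which turns on amino acid transporters and synthetic enzymes, and mesenchymal stem cells are studied for the growth factors they secrete after such injury.

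Rac1 (a small GTPase of actin remodelling) stood at 139, 156 and 168 FPKM in OGD libraries, against 142, 151 and 165 FPKM in undeprived libraries (lowest, median and highest, the form used for all such values below). The arms overlapped (log2 change 0.03, SE 0.05, limma adjusted p = 0.672), and a two-sided exact permutation test gave p = 0.423 (over 5005 splits of 6 against 9 libraries, where the smallest possible is 0.0002). Rac1 averaged 154.7 ± 2.57 FPKM in BMSC-shRac1+OGD and 155.5 ± 14.6 FPKM in BMSC-shLuci+OGD (SD, n = 3 each; two-sided exact permutation p = 1). It averaged 147 ± 4.96 FPKM in BMSC-shRac1 and 156.3 ± 9.9 FPKM in BMSC-shLuci (SD, n = 3 each; two-sided exact permutation p = 0.3). The smallest p that 3 against 3 allows is 0.1, and the ranges overlapped in both pairs. A loss of Rac1 in the libraries labelled shRac1 was thus not shown, and a direction drawn within a hairpin rests on the titles. Changes within shRac1 and within shLuci below compare the OGD group with the undeprived group of the same title. The contrast of all OGD with all undeprived libraries uses no hairpin title to place a library in an arm. BMSC replicate 2 had an FPKM sum of 628685, against 463945 to 516495 elsewhere, and 144 genes at 0, against 42 to 78 in the others. This library stood alone on the first principal component, so list counts are also given without it. The mesenchymal markers Thy1, Cd44, Itgb1 and Prrx1 were present in every library, with Thy1 at 518 to 609 FPKM in OGD libraries, against 476 to 783 FPKM in undeprived libraries. Of 12 mesenchymal markers sought, 9 were tested, and Eng, Nt5e and Lepr were not found by symbol among the deposited genes. Of the 9, 3 were called higher (Itga5, Pdgfra and Alcam, by 0.62, 0.70 and 0.57 on the log2 scale). The 2 called lower were Thy1 itself (-0.16) and Cxcl12 (-0.78). Of 14 macrophage markers sought, 3 were tested, and their summed FPKM ranged from 10.5 to 15.3 in OGD libraries, against 7.92 to 11.7 in undeprived libraries. Most of that sum was Cd14 (a co-receptor for bacterial lipopolysaccharide that stromal cells can also carry), at 8.63 to 12.9 FPKM in OGD libraries, against 6.28 to 8.4 FPKM in undeprived libraries (limma adjusted p = 0.000336), while Cd68 stayed between 0.531 and 1.01 FPKM in OGD libraries, against 0.544 to 1.81 FPKM in undeprived libraries. The endothelial marker Flt1 and the neutrophil marker Ngp reached at most 1.45 FPKM and 1.47 FPKM in any library, and no lymphocyte marker was tested. In bulk libraries, fewer cells of a type and less RNA per cell cannot be told apart.

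**Figure D1:**
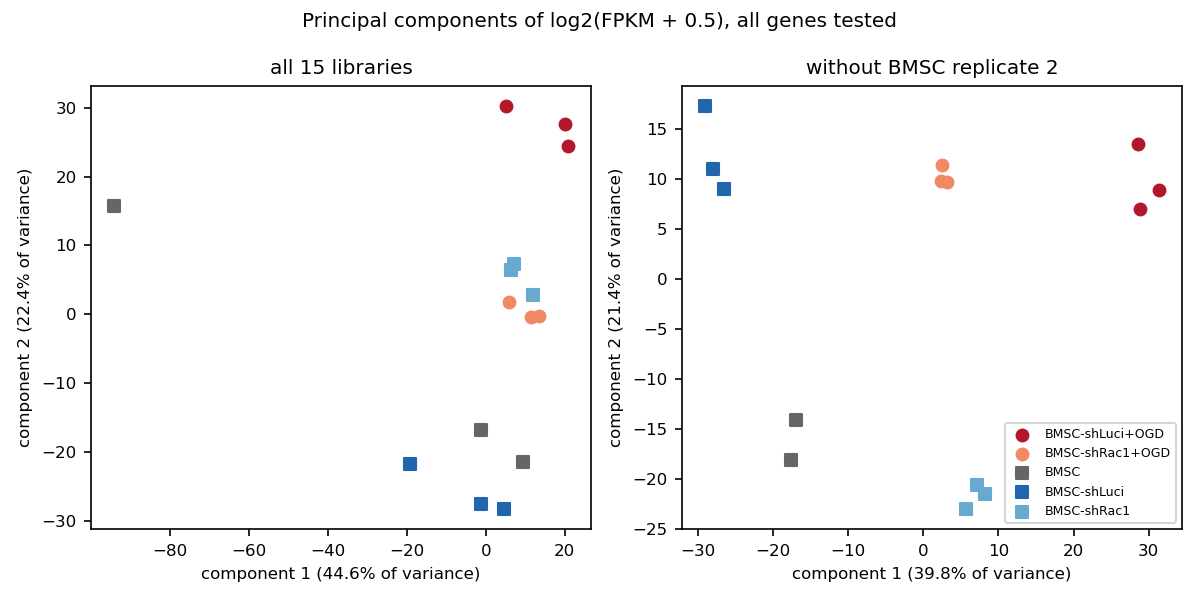
Principal components of log2(FPKM + 0.5) over all genes tested, for all 15 libraries (left) and without BMSC replicate 2 (right). Each point is a library, with OGD as circles and undeprived as squares. With all libraries, component 1 sets BMSC replicate 2 apart at the far left, and without it component 1 holds 39.8% of the variance, of which 47.7% lies between the arms.

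Hairpin title and arm both shaped the libraries. Without BMSC replicate 2, component 1 ran from BMSC-shLuci on the left, past BMSC, BMSC-shRac1+OGD and BMSC-shRac1 in the middle, to BMSC-shLuci+OGD on the right. Across genes, 36.3% of the summed squares between the 5 groups lay on the contrast of the arms, and 759 of 11515 genes had over 80% of theirs there. The median gene had 29.2% there. Any contrast among 5 groups takes a part of these squares, also where it carries no signal, so these shares do not measure an arm effect alone. At an adjusted p under 0.05, limma called 3079 of 11515 genes (26.7%), with 2157 higher after OGD (18.7%) and 922 lower (8.01%). A stricter count asked in addition that all 6 OGD libraries lay above, or all 6 below, all 9 undeprived libraries, and 714 genes met it (6.2%), with 540 higher (4.69%) and 174 lower (1.51%). Such genes are called separated below, and the shares over all genes given here are the background for every list count that follows. Among them 91 moved by at least 1 on the log2 scale, 49 higher and 42 lower, and the median size was 0.51. A fit of 2 plain arms, whose spread includes the differences between groups of an arm, called 1519 genes (1111 higher, 408 lower). Without BMSC replicate 2 the called genes numbered 5583 (3878 higher, 1705 lower) and the separated genes 1016 (730 higher, 286 lower), which include all 714. Among the 12 infected libraries alone, 1269 genes were separated (863 higher, 406 lower), again with all 714 among them. Leaving out undeprived libraries cannot make separated arms overlap. Keeping the 714 was therefore all but fixed in advance and is no check on them. The median log2 change over all genes was 0.10, and 0.0025 after median-of-ratios scaling, so the surplus of higher genes rests on the scale. After that scaling 46.7% of called genes were higher, against 70.1% as deposited, and 259 separated genes were higher and 351 lower. A set of 271 genes, 172 higher and 99 lower, was separated under the deposited scale and all 3 other scalings tried. Of 82 separated genes chosen by the naming rule, 10 overlapped after rescaling to a common total, 20 after median-of-ratios scaling and 18 after quantile normalization. Of those described below, the overlap arose for Nov, Adamts2, Cyr61, Smtn and Dusp6 under a common total. Under quantile normalization it arose for Tgfb3, Acta2, Tagln, Smtn, Cyr61, Hspa5, Dusp6, Cd14, Dtx3l, Mmp11, Adamts4, Ddit4 and Csdc2. Under median-of-ratios scaling it arose for Dusp6, Tkt, Nqo1, Eno1, Pkm, Tpi1, Gusb, Cd14, Fasn, Srebf1, Adamts4, Ddit4 and Tgfbi.

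Immediate early genes carried the deepest falls. Of 22 tested, 18 fell after OGD and 2 rose, with 13 of the falls separated, and the list's median log2 change was -0.74, against 0.10 over all genes. The list had 2 higher and 16 lower (median -0.73) within the shRac1 titles, against 0 higher and 15 lower (median -0.69) within shLuci. The counts were 2 higher and 20 lower without BMSC replicate 2. Fos, a partner in the AP-1 transcription factor (ENSRNOG00000008015, chromosome 6, 109300433 to 109303299, on a build that the sources used here do not give), stood at 5.05, 9.12 and 14.5 FPKM in OGD libraries, against 138, 156 and 176 FPKM in undeprived libraries. The highest OGD library was far below the lowest undeprived one, by 3.20 on the log2 scale (log2 change -4.12, SE 0.05, limma adjusted p = 4.61e-14, a 16.6-fold difference of means). Fosb, its close relative (ENSRNOG00000046667, chromosome 1, 80214494 to 80221710), stood at 1.83, 2.32 and 3.03 FPKM in OGD libraries, against 19.3, 31.9 and 39 FPKM in undeprived libraries (log2 change -3.48, SE 0.08, limma adjusted p = 5.32e-11), again with a wide gap between the arms. Egr1, a zinc finger factor of the serum response (ENSRNOG00000019422, chromosome 18, 27657628 to 27661429), stood at 23.5, 28 and 29.3 FPKM in OGD libraries, against 123, 144 and 151 FPKM in undeprived libraries (log2 change -2.36, SE 0.05, limma adjusted p = 1.36e-11). In Fos and Egr1 the 9 undeprived libraries lay close together, in Fosb the BMSC-shRac1 libraries were the lowest of them, and each of the 3 falls was called under each hairpin title.

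Other factors of the list fell with them. Nr4a1, an orphan nuclear receptor, stood at 5.19, 6.09 and 6.57 FPKM in OGD libraries, against 14.7, 23.6 and 30.0 FPKM in undeprived libraries (log2 change -1.72, SE 0.07, limma adjusted p = 8.98e-09). Klf4, a Krüppel-like factor, stood at 4.59, 5.73 and 8.02 FPKM in OGD libraries, against 14, 22.3 and 39.8 FPKM in undeprived libraries (log2 change -1.81, SE 0.13, limma adjusted p = 5.59e-07). No OGD library reached any undeprived one in either gene. Btg2, which slows proliferation, stood at 22, 24.3 and 26.3 FPKM in OGD libraries, against 56.3, 59.4 and 64.5 FPKM in undeprived libraries (log2 change -1.29, SE 0.05, limma adjusted p = 3.88e-09), with undeprived values so close together that the gap between the arms was 1.09 on the log2 scale. Egr2, Klf2, Myc and Klf6 fell by 1.95, 1.35, 1.07 and 1.01 on the log2 scale, and Nr4a2, Jun and Jund fell by 0.80, 0.68 and 0.61, all separated on the deposited scale. Separated falls of the list numbered 11 under a common total, 12 under quantile normalization and 13 under median-of-ratios scaling. The fall did not extend to the whole list: Fosl2 (-0.16) and Ier5 (-0.14) were not called, Fosl1 rose by 0.25, and Klf10, a factor of the TGF-beta response, rose by 0.71 on the log2 scale with overlapping arms. Junb (-0.12) was called lower with overlapping arms.

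**Figure D2:**
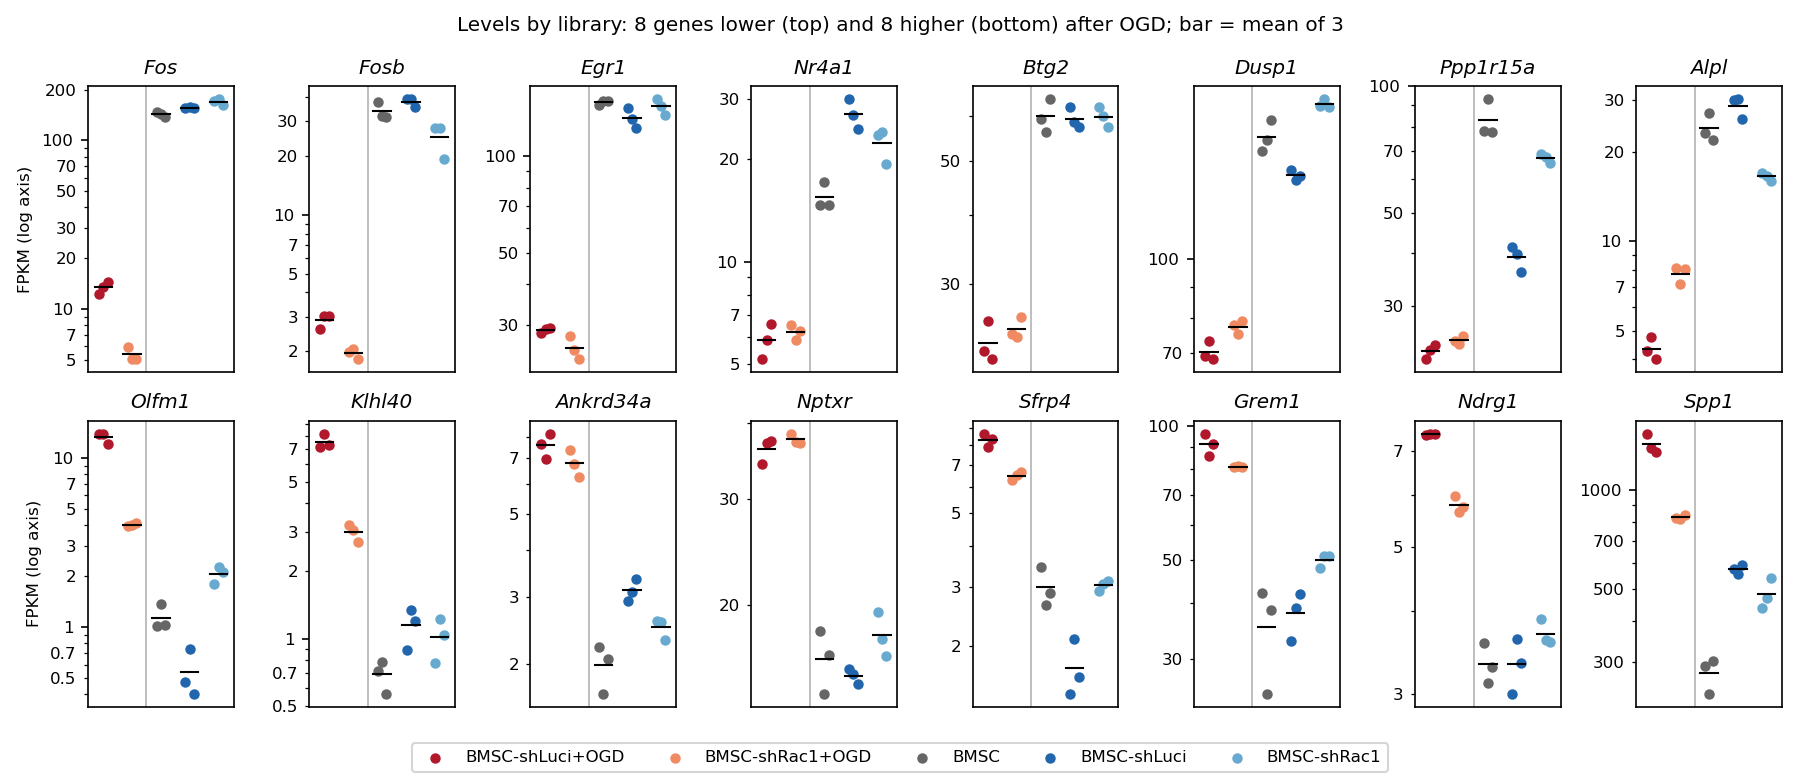
FPKM on a log axis in every library for 8 genes lower after OGD (top) and 8 higher (bottom), with the 3 libraries of a group as points, their mean as a bar, and OGD groups left of the grey line. No point left of the line overlaps a point right of it in any of the 16 panels, and Fos shows the widest gap.

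Promoters of 4 genes that fell in both OGD groups are printed, picked because they hold the letters of response elements tied to immediate early genes. Egr1 and Btg2 belong to that list, while Dusp1 comes from the ERK feedback inhibitors and Ppp1r15a from the ATF4 targets described below. The CArG box is the element bound by serum response factor, and TGACGTCA is the cyclic AMP response element. Each line gives the 250 bases before the gene start from the RefSeq table of build GRCr8, 5′ to 3′ on the gene's strand, with matches in capitals.
Egr1 chr18:26736828-26737077 (+): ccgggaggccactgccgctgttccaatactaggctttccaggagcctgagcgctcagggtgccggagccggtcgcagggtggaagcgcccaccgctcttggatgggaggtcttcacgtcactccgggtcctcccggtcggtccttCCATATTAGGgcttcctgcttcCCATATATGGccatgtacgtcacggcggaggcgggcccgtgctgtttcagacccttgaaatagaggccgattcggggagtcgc
Dusp1 chr10:17184603-17184852 (+): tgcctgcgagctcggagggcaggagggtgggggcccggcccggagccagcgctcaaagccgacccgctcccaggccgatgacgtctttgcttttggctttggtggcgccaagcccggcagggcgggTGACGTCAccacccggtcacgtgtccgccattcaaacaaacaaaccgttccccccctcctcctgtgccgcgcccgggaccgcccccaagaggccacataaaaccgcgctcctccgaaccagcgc
Btg2 chr13:48087691-48087940 (-): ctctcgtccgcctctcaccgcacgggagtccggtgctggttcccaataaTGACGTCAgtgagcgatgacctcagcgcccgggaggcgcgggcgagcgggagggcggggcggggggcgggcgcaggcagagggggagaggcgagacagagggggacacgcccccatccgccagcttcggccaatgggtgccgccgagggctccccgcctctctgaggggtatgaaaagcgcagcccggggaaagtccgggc
Ppp1r15a chr1:105139597-105139846 (-): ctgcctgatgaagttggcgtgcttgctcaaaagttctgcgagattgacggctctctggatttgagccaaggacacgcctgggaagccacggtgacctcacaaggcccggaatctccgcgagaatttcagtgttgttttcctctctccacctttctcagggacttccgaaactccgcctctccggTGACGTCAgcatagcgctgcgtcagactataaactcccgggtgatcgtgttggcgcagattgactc
In Egr1 CArG boxes began 105 and 83 bases before the start. The TGACGTCA began 124 bases before the start of Dusp1, 201 before that of Btg2 and 66 before that of Ppp1r15a. Searched on both strands of 33469 windows from 250 bases before to 50 after a start, the CArG box was in 1.64% and TGACGTCA in 1.83%. Among the 9803 windows of genes in the deposited table the shares were 1.40% and 3.13%. Of 22 immediate early genes 16 had a window in the table, and 5 of these held a CArG box (Egr1, Egr2, Klf6, Srf and Zfp36) and 3 a TGACGTCA (Btg2, Jund and Maff). Of 12 windows of ERK feedback inhibitors 1 held a CArG box and 1 a TGACGTCA (Dusp1). Of 24 windows of ATF4 targets 0 held a CArG box and 1 a TGACGTCA (Ppp1r15a). Among 95 named genes with a window, 3 held a CArG box and 5 a TGACGTCA. A match describes letters only, and the matches printed do not overlap each other.

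ATF4 targets, the genes of amino acid supply and the integrated stress response, were mostly lower over the arms. Of 32 tested, 25 fell and 0 rose, 10 of the falls were separated, and the median log2 change was -0.42. By title, 1 higher and 12 lower (median -0.27) were called within shRac1, against 1 higher and 11 lower (median -0.15) within shLuci. The list's summed level ran from 1951 to 2073 FPKM in BMSC-shLuci+OGD and from 2046 to 2124 FPKM in BMSC-shRac1+OGD, against 2265 to 2488 FPKM in BMSC-shLuci, 2722 to 2803 FPKM in BMSC-shRac1 and 3080 to 3833 FPKM in BMSC. The uninfected cells, which have no OGD counterpart, were thus the highest, and among infected groups alone 24 were lower and 1 higher. Atf3, a stress-induced repressor, stood at 2.24, 2.45 and 2.78 FPKM in OGD libraries, against 4.23, 11.3 and 13.2 FPKM in undeprived libraries (log2 change -1.62, SE 0.06, limma adjusted p = 2.36e-09). Ppp1r15a, the phosphatase subunit that ends the block on translation, stood at 22.4, 24.3 and 25.4 FPKM in OGD libraries, against 36.2, 67.7 and 93.2 FPKM in undeprived libraries (log2 change -1.30, SE 0.05, limma adjusted p = 3.96e-09). The OGD libraries lay close together in both genes, while the undeprived values were spread over the 3 groups, lowest in BMSC-shLuci. Slc7a5, a transporter of large neutral amino acids, stood at 38.2, 44.9 and 47.5 FPKM in OGD libraries, against 70.3, 90.4 and 110.1 FPKM in undeprived libraries (log2 change -0.99, SE 0.05, limma adjusted p = 7e-08), and its partner Slc3a2 fell by 0.77 on the log2 scale. The serine and one-carbon enzymes Psph, Psat1 and Mthfd2 fell by 0.47, 0.38 and 0.51, and Atf4 itself by 0.59 with overlapping arms. Trib3 (-0.97), Sesn2 (-0.89) and Chac1 (-0.66) fell with overlap, since BMSC-shLuci already stood low. Ddit3 (-0.05), Cebpb (-0.13) and Slc7a3 (0.17) were among the 7 not called. With all arms taken as 2 plain groups, 19 of the 32 were lower, and without BMSC replicate 2, 28 were lower and 1 higher.

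Chaperones and folding enzymes of the endoplasmic reticulum moved less. Of 23 tested, 7 fell and 1 rose (Ero1a, 0.20), with 5 falls separated. The contrast within shRac1 called 0 higher and 6 lower (median -0.24), and that within shLuci 1 higher and 3 lower (median -0.18). Hspa5, the chief chaperone of this compartment, stood at 272, 285 and 308 FPKM in OGD libraries, against 357, 436 and 452 FPKM in undeprived libraries (log2 change -0.54, SE 0.04, limma adjusted p = 7.58e-07). Herpud1, which serves the removal of misfolded proteins, stood at 40.5, 42.1 and 48.9 FPKM in OGD libraries, against 49.9, 76.2 and 83 FPKM in undeprived libraries (log2 change -0.64, SE 0.05, limma adjusted p = 7.17e-07). Calr, a calcium-binding chaperone, stood at 499, 555 and 573 FPKM in OGD libraries, against 649.6, 753 and 892 FPKM in undeprived libraries (log2 change -0.46, SE 0.07, limma adjusted p = 0.000306). OGD values lay below all undeprived ones in each of the 3, with narrow gaps. Herpud1 changed by -0.18 within shLuci, not called, and by -0.87 within shRac1. Without BMSC replicate 2 the falls numbered 14.

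**Figure D3:**
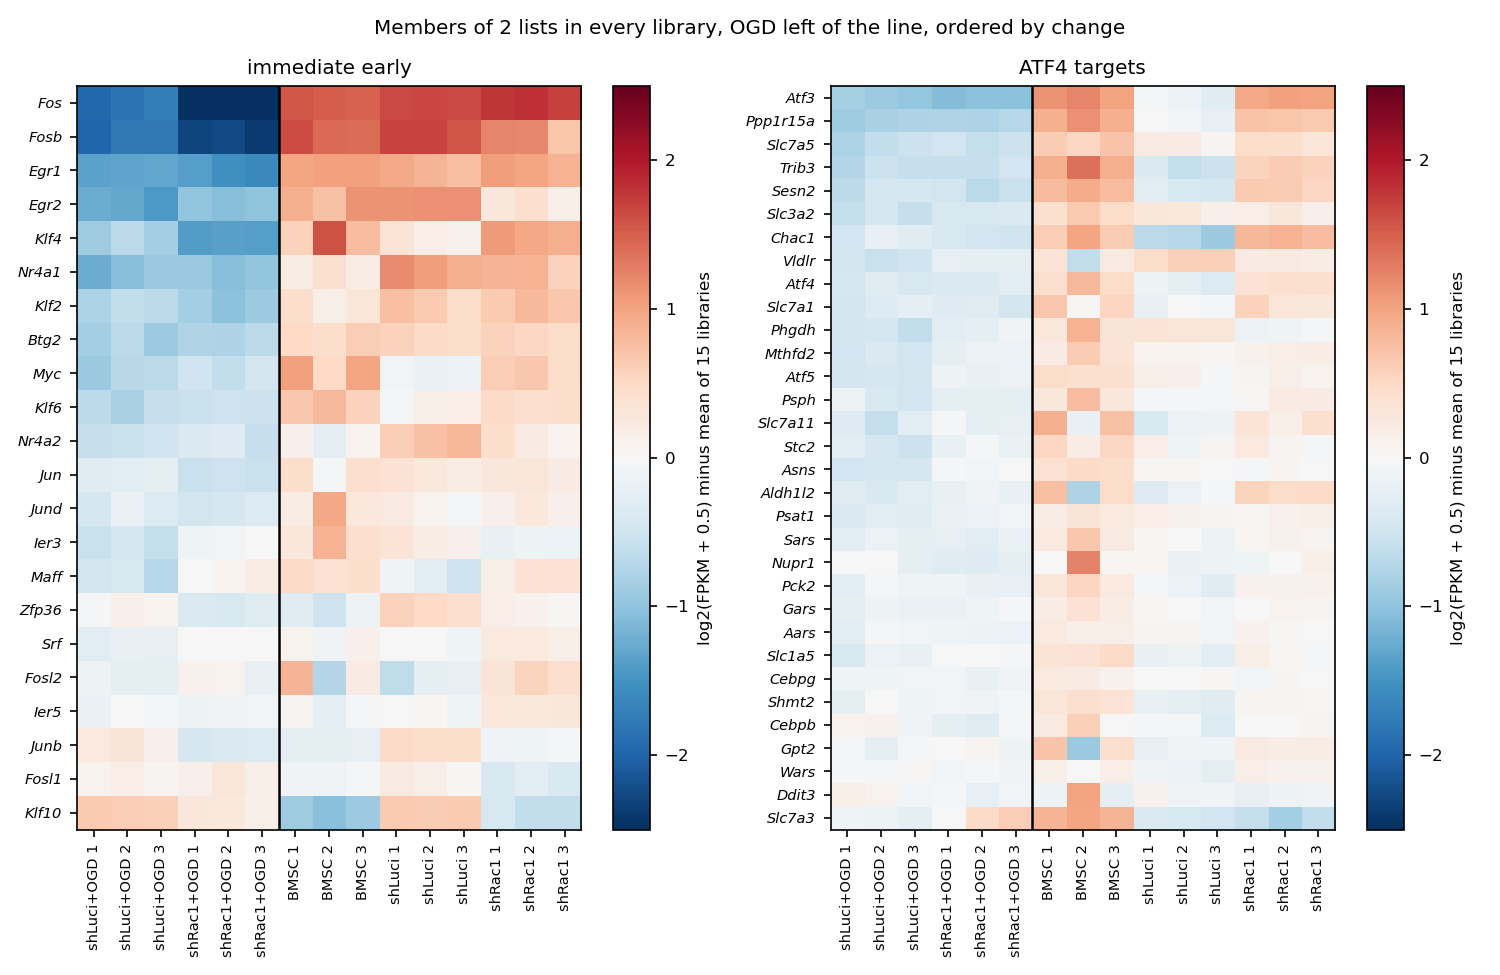
Levels of 22 immediate early genes (left) and 32 ATF4 targets (right) in each library as log2(FPKM + 0.5) minus the gene's mean over 15 libraries, blue for low and red for high, ordered by change. OGD libraries stand left of the black line. Fos, Fosb and Egr1 are blue in all 6 OGD libraries and red in all 9 undeprived ones, while Trib3 and Chac1 are also pale or blue in BMSC-shLuci.

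Feedback inhibitors of the ERK kinases, which growth factor signals switch on, did not move together: of 13 tested, 2 rose, 4 fell and 7 were not called. The list had 3 higher and 3 lower (median 0.04) within the shRac1 titles, against 3 higher and 5 lower (median 0.09) within shLuci. Calls numbered 2 higher and 5 lower without BMSC replicate 2. Dusp1, a nuclear phosphatase of stress and growth kinases, stood at 68.5, 74.3 and 79 FPKM in OGD libraries, against 135, 157 and 183 FPKM in undeprived libraries (log2 change -1.09, SE 0.04, limma adjusted p = 2.48e-09). Dusp6, the cytosolic phosphatase specific to ERK, stood at 58.8, 64.2 and 66.8 FPKM in OGD libraries, against 46.6, 53.9 and 57.2 FPKM in undeprived libraries (log2 change 0.28, SE 0.05, limma adjusted p = 0.000549). These 2 phosphatases thus moved in opposite directions, each with no overlap between the arms, though Dusp6 was not separated under any of the 3 other scalings. Spred3, an inhibitor of the same pathway, rose by 0.64 on the log2 scale, and Spry2 (0.17) and Spry4 (-0.09) were not called.

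Genes of the contractile apparatus fell in 15 of 27 cases and rose in 1 (Des, desmin), with 3 falls separated and a median of -0.24. By title, 1 higher and 2 lower (median -0.14) were called within shRac1, against 2 higher and 11 lower (median -0.32) within shLuci. There were 2 higher and 22 lower without BMSC replicate 2. Acta2, the smooth muscle actin and among the most abundant transcripts here, stood at 1349.6, 2118 and 2771 FPKM in OGD libraries, against 3025, 3389 and 5657 FPKM in undeprived libraries (log2 change -0.89, SE 0.08, limma adjusted p = 8.82e-06). Tagln, an actin-binding protein, stood at 1298, 1852 and 2337 FPKM in OGD libraries, against 2439, 2584 and 4295 FPKM in undeprived libraries (log2 change -0.66, SE 0.09, limma adjusted p = 0.00021). Smtn stood at 72.9, 85.4 and 96.6 FPKM in OGD libraries, against 112, 121 and 132 FPKM in undeprived libraries (log2 change -0.52, SE 0.04, limma adjusted p = 2.72e-06). All undeprived libraries were higher than all OGD libraries in the 3 genes on the deposited scale, but the arms of each overlapped under quantile normalization and those of Smtn also under a common total. Acta2 and Tagln changed by -0.23 and -0.14 within shRac1, neither called, against -1.21 and -0.95 within shLuci. The cytoskeletal genes Actb (-0.10), Vcl (-0.14) and Flna (-0.14) were not called. In a fit of 2 plain arms 7 of the 27 were lower and 1 higher. Beside these genes, 7 markers of pericytes and smooth muscle were tested, of which 3 rose (Abcc9, Kcnj8 and Des) and 3 fell (Myh11, Notch3 and Mcam), all with overlapping arms, and their summed level ran from 105 to 124 FPKM in OGD libraries, against 90.6 to 132 FPKM in undeprived libraries. Whether a shift between cell states is part of the contractile change was not tested. Targets of the coactivator YAP, which responds to stretch and adhesion, fell in 10 of 19 cases and rose in 1, with 5 falls separated and a median of -0.43. The contrast within shRac1 called 2 higher and 2 lower (median -0.08), and that within shLuci 0 higher and 11 lower (median -0.76). Under a common total 1 fall was separated, and there were 2 higher and 12 lower calls without BMSC replicate 2. Amotl2, a YAP inhibitor, stood at 75.2, 90.2 and 103 FPKM in OGD libraries, against 138, 166 and 178 FPKM in undeprived libraries (log2 change -0.87, SE 0.05, limma adjusted p = 9.16e-08). Cyr61, a matricellular protein, stood at 306, 425 and 506 FPKM in OGD libraries, against 546, 646 and 741 FPKM in undeprived libraries (log2 change -0.63, SE 0.06, limma adjusted p = 7.05e-06). Neither gene had an OGD library within the undeprived range on the deposited scale, while the arms of Cyr61 overlapped under a common total and under quantile normalization. Cyr61 changed by -0.20 within shRac1, not called, and by -1.05 within shLuci. Ctgf and F3, the gene of tissue factor, fell by 0.66 and 0.92 on the log2 scale, and Axl, a receptor kinase, rose by 0.30.

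HIF targets split in both directions: of 24 tested, 7 rose and 4 fell, with 5 rises and 1 fall separated. The list had 4 higher and 0 lower (median 0.21) within the shRac1 titles, against 7 higher and 5 lower (median -0.10) within shLuci. Calls were 10 higher and 7 lower without BMSC replicate 2. Ndrg1, a stress-induced gene of the hypoxia response, stood at 5.66, 6.68 and 7.43 FPKM in OGD libraries, against 3, 3.58 and 3.9 FPKM in undeprived libraries (log2 change 0.84, SE 0.05, limma adjusted p = 3.02e-07). Ddit4, which restrains mTOR, stood at 14, 18.4 and 19.9 FPKM in OGD libraries, against 8.85, 10.4 and 13.8 FPKM in undeprived libraries (log2 change 0.69, SE 0.07, limma adjusted p = 2.04e-05), and Pfkfb4, Mxi1 and Adm rose by 0.68, 0.58 and 0.51 on the log2 scale. Car9, a carbonic anhydrase of the cell surface, went the other way at 75, 117 and 151 FPKM in OGD libraries, against 161, 174 and 228 FPKM in undeprived libraries (log2 change -0.71, SE 0.06, limma adjusted p = 2.35e-06). For Car9 the change was -0.17 within shRac1, not called, and -1.08 within shLuci. Vegfa, the vessel growth factor, fell by 0.61 and Slc16a3, a lactate exporter, by 1.00 with overlapping arms, while Slc2a1 (-0.11), Pdk1 (0.17) and Plod2 (-0.10) were not called. Of 19 members with a RefSeq promoter window, 14 held ACGTG, the core of the HIF element, on either strand, among them Car9 and Ddit4, against 19.3% of all windows and 25.2% of those of genes in the deposited table. Under median-of-ratios scaling 2 rises stayed separated.

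Glycolytic enzymes rose in 10 of 17 cases and fell in 0, with a median of 0.29, small changes against the shift of 0.10 over all genes. By title, 3 higher and 0 lower (median 0.16) were called within shRac1, against 8 higher and 0 lower (median 0.30) within shLuci. Eno1 (enolase 1) stood at 899.6, 937 and 1000.3 FPKM in OGD libraries, against 633, 749 and 850.3 FPKM in undeprived libraries (log2 change 0.33, SE 0.06, limma adjusted p = 0.00214). Tpi1 stood at 188, 203 and 212 FPKM in OGD libraries, against 127, 159 and 182 FPKM in undeprived libraries (log2 change 0.37, SE 0.06, limma adjusted p = 0.000397). Pkm, the last enzyme of the pathway, stood at 659, 703 and 786 FPKM in OGD libraries, against 397, 565 and 646 FPKM in undeprived libraries (log2 change 0.34, SE 0.07, limma adjusted p = 0.00442). OGD libraries were the higher ones throughout in the 3 genes, but none of the 3 was separated and Eno1 was no longer called after median-of-ratios scaling, which left 5 of the 17 called higher and 0 lower; without BMSC replicate 2, 17 of 17 were called higher. Respiratory chain subunits were called in 3 of 74 cases (2 higher and 1 lower, and 18 higher and 1 lower without BMSC replicate 2). Of 75 ribosomal protein genes 0 were called by limma, though 21 were higher and 1 lower without that library. Without it, 3878 of all 11515 genes were called higher and 1705 lower. At an unadjusted p under 0.05 the ribosomal counts were 0 higher and 0 lower in the full set of libraries. The summed level of these genes ran from 35721 to 90246 FPKM in BMSC, against at most 54520 FPKM in any other group. The sum of the respiratory chain list ran from 9499 to 23091 FPKM in BMSC, against at most 13231 FPKM in any other group. Such spread enters the fit, so few or no calls do not show that the genes of either list were unchanged.

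Lipid synthesis genes stood higher over the arms, with few calls within shRac1. Of 24 genes of cholesterol synthesis and uptake 17 rose and 0 fell, with 4 separated and a median of 0.28, and of 13 genes of fatty acid synthesis and handling 8 rose and 0 fell, with 5 separated and a median of 0.49. For cholesterol genes the contrast within shRac1 called 0 higher and 0 lower (median 0.02), and that within shLuci 8 higher and 0 lower (median 0.23). For fatty acid genes 1 was higher and 1 lower within shRac1 (median 0.07), against 8 higher and 0 lower within shLuci (median 0.57). The summed level of the cholesterol genes ran from 1138 to 1162 FPKM in BMSC-shLuci+OGD and from 1128 to 1138 FPKM in BMSC-shRac1+OGD, against 947 to 958 FPKM in BMSC-shLuci, 1089 to 1111 FPKM in BMSC-shRac1 and 811 to 841 FPKM in BMSC. Without BMSC replicate 2 the cholesterol calls were 18 higher and 1 lower and the fatty acid calls 10 higher and 0 lower. Srebf1, the factor that drives fatty acid synthesis, stood at 16.3, 18.5 and 21.6 FPKM in OGD libraries, against 11.4, 12.6 and 14.7 FPKM in undeprived libraries (log2 change 0.53, SE 0.07, limma adjusted p = 0.000161). Fasn, the fatty acid synthase, stood at 48.1, 50.3 and 56.8 FPKM in OGD libraries, against 23.6, 36.9 and 43.4 FPKM in undeprived libraries (log2 change 0.52, SE 0.10, limma adjusted p = 0.00165). Each OGD library exceeded each undeprived one in both genes, although neither was separated after median-of-ratios scaling. Scd2, a desaturase, rose by 0.75, Acly by 0.45 and Sqle by 0.37 on the log2 scale, while Insig1 (0.11) was not called. Plin2, which coats lipid droplets, stood at 32.7, 37.9 and 46 FPKM in OGD libraries, against 13.4, 25.9 and 29.4 FPKM in undeprived libraries (log2 change 0.64, SE 0.11, limma adjusted p = 0.000686), with BMSC replicate 2 far below the other undeprived libraries (log2 change 0.53 without it). A fit of 2 plain arms called 6 of the 24 cholesterol genes and 7 of the 13 fatty acid genes, all higher.

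Targets of NRF2, the factor of the antioxidant response, rose in 10 of 25 cases and fell in 2, with 2 rises separated. The contrast within shRac1 called 3 higher and 0 lower (median 0.09), and that within shLuci 10 higher and 0 lower (median 0.36). Calls were 16 higher and 4 lower without BMSC replicate 2. Nqo1, a quinone reductase, stood at 279.8, 295 and 323 FPKM in OGD libraries, against 147, 176 and 278 FPKM in undeprived libraries (log2 change 0.72, SE 0.07, limma adjusted p = 1.7e-05). Tkt, transketolase, stood at 176, 188 and 203 FPKM in OGD libraries, against 141, 147 and 169.7 FPKM in undeprived libraries (log2 change 0.33, SE 0.05, limma adjusted p = 0.000323). The lowest OGD library exceeded the highest undeprived one only narrowly in both. Hmox1 (-0.12), Gclc (-0.25) and Srxn1 (-0.31), also targets, were not called, and median-of-ratios scaling gave 5 rises and 4 falls. Xdh, which makes uric acid, had the largest change among enzymes that make or remove oxidants (log2 change 2.00, SE 0.06, limma adjusted p = 5.92e-10), at 4.47, 11.3 and 19 FPKM in OGD libraries, against 0.937, 1.28 and 5.68 FPKM in undeprived libraries, but its arms overlapped: the change was -0.22 between the libraries labelled shRac1 and 3.65 between the shLuci titles.

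Secreted trophic factors fell more often than they rose, with 11 of 24 lower and 2 higher. The list had 3 higher and 5 lower (median -0.14) within the shRac1 titles, against 3 higher and 10 lower (median -0.16) within shLuci. Calls numbered 5 higher and 12 lower without BMSC replicate 2. Gas6, the ligand of Axl, stood at 33.4, 50.1 and 65.7 FPKM in OGD libraries, against 69.6, 119.6 and 151 FPKM in undeprived libraries (log2 change -1.15, SE 0.05, limma adjusted p = 4.01e-09). Hbegf, a ligand of the epidermal growth factor receptor, stood at 35.2, 47.4 and 60.3 FPKM in OGD libraries, against 69.1, 77.8 and 117 FPKM in undeprived libraries (log2 change -0.88, SE 0.04, limma adjusted p = 2.03e-08). Igf1 stood near the floor of the table at 0.0312, 0.0419 and 0.253 FPKM in OGD libraries, against 0.435, 0.793 and 2.46 FPKM in undeprived libraries (log2 change -1.35, SE 0.19, limma adjusted p = 0.000229), and all 3 genes were lower in each OGD library than in each undeprived one. Gas6 and Igf1 changed by -0.14 and -0.67 within shRac1, neither called, against -1.98 and -1.91 within shLuci. Fgf2 and Kitlg, the ligand of Kit, were the 2 that rose, by 0.63 and 1.48 on the log2 scale, with overlapping arms. Bdnf, Pgf and Cntf fell by 0.38, 0.66 and 0.57, also with overlap.

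Members of the TGF-beta system went in both directions, with 3 of 23 higher and 6 lower. By title, 5 higher and 2 lower (median 0.09) were called within shRac1, against 3 higher and 7 lower (median -0.15) within shLuci. There were 7 higher and 8 lower without BMSC replicate 2. Among the ligands Tgfb3 stood at 167, 281 and 399 FPKM in OGD libraries, against 417, 520.3 and 628 FPKM in undeprived libraries (log2 change -0.96, SE 0.04, limma adjusted p = 1.61e-08), Tgfb2 fell by 1.08 on the log2 scale with overlap, and Tgfb1 (0.16) was not called. The change of Tgfb3 was -0.14 within shRac1, not called, and -1.58 within shLuci. Grem1, a secreted antagonist of bone morphogenetic proteins, stood at 80.8, 83.5 and 96.2 FPKM in OGD libraries, against 25.1, 42 and 51.2 FPKM in undeprived libraries (log2 change 1.08, SE 0.10, limma adjusted p = 6.66e-06), and its ligand Bmp4 at 3.5, 4.82 and 6.57 FPKM in OGD libraries, against 9.92, 10.6 and 22.4 FPKM in undeprived libraries (log2 change -1.36, SE 0.04, limma adjusted p = 8.12e-10). Antagonist and ligand thus changed in opposite directions, each without overlap. Tgfbi, a matrix protein induced by TGF-beta, stood at 19.8, 39.4 and 65.2 FPKM in OGD libraries, against 8.77, 10.1 and 19.5 FPKM in undeprived libraries (log2 change 1.5, SE 0.05, limma adjusted p = 5.96e-10), with its lowest OGD and highest undeprived library almost level and an overlap after median-of-ratios scaling. Of 18 Wnt and Notch genes 5 rose and 7 fell (5 higher and 7 lower without BMSC replicate 2). The contrast within shRac1 called 2 higher and 7 lower (median 0.05), and that within shLuci 5 higher and 6 lower (median 0.06). The Notch effector Hes1 stood at 20.4, 24.6 and 31.7 FPKM in OGD libraries, against 43.9, 53.7 and 78.8 FPKM in undeprived libraries (log2 change -1.17, SE 0.07, limma adjusted p = 2.31e-07), and Hey1 and Hey2 fell by 1.11 and 0.99 with overlap. Sfrp4, a secreted Wnt antagonist, stood at 6.28, 7.29 and 8.67 FPKM in OGD libraries, against 1.44, 2.89 and 3.46 FPKM in undeprived libraries (log2 change 1.38, SE 0.07, limma adjusted p = 6.61e-08), whereas Sfrp1 fell by 0.50 on the log2 scale with overlap.

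Osteogenic genes divided as well, with 5 of 18 higher and 6 lower. The list had 4 higher and 6 lower (median -0.21) within the shRac1 titles, against 4 higher and 6 lower (median -0.06) within shLuci. Calls numbered 6 higher and 8 lower without BMSC replicate 2. Alpl, the phosphatase of early mineralisation, stood at 4.02, 5.97 and 8.13 FPKM in OGD libraries, against 16, 23.2 and 30.3 FPKM in undeprived libraries (log2 change -1.86, SE 0.06, limma adjusted p = 1.47e-09), while Spp1, which encodes osteopontin, stood at 820.3, 1073 and 1489 FPKM in OGD libraries, against 241, 469.9 and 593 FPKM in undeprived libraries (log2 change 1.33, SE 0.07, limma adjusted p = 3.55e-08). Both showed clear space between the arms, in opposite directions. Ankh, a pyrophosphate exporter, rose by 0.99 on the log2 scale and was separated, and Runx2 (-0.02) and Dlx5 (0.01), the lineage factors, were not called. Of 18 collagens 2 rose and 2 fell (2 higher and 8 lower without BMSC replicate 2), with Col8a2 as the separated one (log2 change -0.72, SE 0.06, limma adjusted p = 1.9e-06) and Col1a1 (-0.09) and Col3a1 (0.29) not called. Nov, a matricellular protein, stood at 6.88, 7.21 and 8.54 FPKM in OGD libraries, against 9.78, 15.3 and 66.7 FPKM in undeprived libraries (log2 change -1.60, SE 0.09, limma adjusted p = 8.54e-08), and most of its size came from the high BMSC-shLuci libraries, since the lowest undeprived library lay near the OGD range. Vcan, a large proteoglycan, rose by 0.67 on the log2 scale and was separated. Mmp11 and Adamts4, metalloproteinases, rose by 0.57 and 0.59, and Adamts2, which trims procollagen, fell by 0.67.

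The largest rises among separated genes with at least 5 FPKM in the higher arm belonged to no single list. Olfm1, a secreted glycoprotein best known from neurons (ENSRNOG00000009862, chromosome 3, 6773813 to 6798737), stood at 3.96, 8.08 and 13.9 FPKM in OGD libraries, against 0.404, 1.03 and 2.25 FPKM in undeprived libraries (log2 change 2.28, SE 0.09, limma adjusted p = 2.88e-09, a 6.95-fold difference of means). Klhl40, known from skeletal muscle thin filaments, stood at 2.68, 5.18 and 8.18 FPKM in OGD libraries, against 0.569, 0.891 and 1.35 FPKM in undeprived libraries (log2 change 1.89, SE 0.09, limma adjusted p = 2.1e-08). In both genes BMSC-shLuci+OGD was higher than BMSC-shRac1+OGD, and both groups were above every undeprived library. Nptxr, a neuronal pentraxin receptor, and Ankrd34a were more even. Nptxr stood at 34.3, 37.2 and 38.4 FPKM in OGD libraries, against 14.3, 16.5 and 19.5 FPKM in undeprived libraries (log2 change 1.14, SE 0.06, limma adjusted p = 3.53e-08). Ankrd34a stood at 6.23, 7.18 and 8.14 FPKM in OGD libraries, against 1.67, 2.58 and 3.35 FPKM in undeprived libraries (log2 change 1.36, SE 0.07, limma adjusted p = 3.88e-08), with gaps of 0.798 and 0.805 on the log2 scale that were the widest among rises at this level. Ptprn, a protein of secretory granules, stood at 45.1, 60.9 and 81.9 FPKM in OGD libraries, against 13.3, 19.5 and 29.2 FPKM in undeprived libraries (log2 change 1.58, SE 0.05, limma adjusted p = 5.92e-10). Gja4, a gap junction protein, stood at 4.43, 6.75 and 9.03 FPKM in OGD libraries, against 0.793, 1.25 and 3.16 FPKM in undeprived libraries (log2 change 1.71, SE 0.13, limma adjusted p = 9.11e-07). Lrrc15, a membrane protein of mesenchymal cells, stood at 8.17, 11.2 and 14.2 FPKM in OGD libraries, against 2.18, 3.2 and 7.09 FPKM in undeprived libraries (log2 change 1.42, SE 0.15, limma adjusted p = 1.58e-05). Arms were apart in all 3. Csdc2, Adra2a (an adrenergic receptor) and Arrdc3 rose by 1.49, 1.41 and 1.53 on the log2 scale, Arrdc3 with BMSC replicate 2 at 0.186 FPKM, against 2.48 FPKM or more in the other undeprived libraries (log2 change 1.23 without it). Lyve1, a hyaluronan receptor of lymphatic endothelium and macrophages, stood at 10.1, 12.6 and 15.9 FPKM in OGD libraries, against 1.87, 2.92 and 6.3 FPKM in undeprived libraries (log2 change 1.70, SE 0.10, limma adjusted p = 1.67e-07). Itgax, an integrin of dendritic cells and macrophages, stood at 6.75, 9.44 and 12.8 FPKM in OGD libraries, against 1.43, 2.69 and 5.66 FPKM in undeprived libraries (log2 change 1.48, SE 0.10, limma adjusted p = 6.48e-07). Both are known from other cell types. Of the macrophage markers Cd14 moved with them and was separated, the summed level of the 3 tested reached higher in OGD libraries with overlap, as given above, and Cd68 stayed at or below 1.01 FPKM in OGD libraries. The endothelial marker Flt1 stayed at or below 0.192 FPKM there. The part of other cells in these rises was not tested.

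Among the largest falls outside the immediate early list, Pln, the brake on the calcium pump of muscle, stood at 11.7, 15.1 and 17.4 FPKM in OGD libraries, against 26.1, 53.3 and 84.9 FPKM in undeprived libraries (log2 change -1.83, SE 0.13, limma adjusted p = 5.92e-07). Gria2, a glutamate receptor subunit, stood at 0.838, 1.79 and 3.1 FPKM in OGD libraries, against 4.23, 6.71 and 9.14 FPKM in undeprived libraries (log2 change -1.72, SE 0.10, limma adjusted p = 8.04e-08). Parm1 stood at 0.927, 1.76 and 2.62 FPKM in OGD libraries, against 3.46, 6.37 and 17.4 FPKM in undeprived libraries (log2 change -1.85, SE 0.08, limma adjusted p = 5.51e-09). None of the 6 OGD libraries reached the undeprived range in these genes.

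Interferon-stimulated genes were called higher in 11 of 18 cases and lower in 1, but 1 of the rises was separated: Dtx3l, a ubiquitin ligase, at 0.991, 1.22 and 1.38 FPKM in OGD libraries, against 0.466, 0.676 and 0.802 FPKM in undeprived libraries (log2 change 0.54, SE 0.08, limma adjusted p = 0.000202). The interferon list had 1 higher and 3 lower (median 0.03) within shRac1 and 9 higher and 2 lower (median 0.54) within shLuci. Its calls were 11 higher and 2 lower without BMSC replicate 2. Irf1, an interferon regulatory factor, had a log2 change of 0.85 with overlap, and 0.51 among infected groups alone. A fit of 2 plain arms called 5 of the 18. Inflammatory targets of NF-kB rose in 3 and fell in 5 of 16 cases (3 higher and 7 lower without BMSC replicate 2). By title, 4 higher and 2 lower (median 0.21) were called within shRac1, against 0 higher and 6 lower (median -0.28) within shLuci. Cxcl1, a neutrophil chemokine, stood at 9, 14.5 and 21.2 FPKM in OGD libraries, against 22.4, 34.8 and 42.2 FPKM in undeprived libraries (log2 change -1.16, SE 0.07, limma adjusted p = 1.72e-07) and was the separated one. Its change was -0.30 within shRac1, not called, and -1.85 within shLuci. Ccl2, a monocyte chemokine, was called higher (log2 change 1.13, SE 0.12, limma adjusted p = 2.07e-05), yet it stood at 10.9, 19.5 and 26 FPKM in OGD libraries, against 2.22, 6.24 and 23.3 FPKM in undeprived libraries, and its change was 2.87 between the libraries labelled shRac1 and -0.79 between the shLuci titles. Heat shock genes rose in 5 and fell in 4 of 19 cases (6 higher and 6 lower without BMSC replicate 2). Hspb8, a small heat shock protein, was called higher (1.18) with changes of -0.44 within shRac1 and 2.84 within shLuci, and Cryab, another, was called lower (-1.44) with changes of 0.13 within shRac1 and -2.74 within shLuci. For Ccl2 and Hspb8 the fit of 2 plain arms made no call.

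Genes of growth and death changed in part. Mitotic genes were called in 2 of 29 cases, both higher, and DNA replication genes in 4 of 38, all lower, with 0 separated in either list. These counts moved with single choices: DNA replication genes had 1 higher and 13 lower without BMSC replicate 2 and 17 lower among infected groups alone, of which 4 were separated, and 11 were lower under median-of-ratios scaling. Mitotic genes had 5 higher and 1 lower without BMSC replicate 2, and 4 higher and 6 lower among infected groups alone. Plk2 and Gadd45a, stress-induced genes of growth arrest and survival, stood lower: Gadd45a at 27.2, 31.2 and 34.9 FPKM in OGD libraries, against 43, 67.8 and 96.2 FPKM in undeprived libraries (log2 change -1.10, SE 0.04, limma adjusted p = 3.88e-09). Plk2 stood at 15.1, 19.9 and 22.9 FPKM in OGD libraries, against 26.2, 54.3 and 66.6 FPKM in undeprived libraries (log2 change -1.16, SE 0.10, limma adjusted p = 2.82e-06). Neither gene's arms overlapped, while Cdkn1a (0.13) and Mdm2 (0.15) were not called. Of 12 BCL2 family genes, 3 rose and 2 fell (4 higher and 2 lower without BMSC replicate 2). The death-promoting BH3-only genes Bcl2l11 and Bmf stood at 3.33, 5.65 and 7.83 FPKM in OGD libraries, against 1.3, 2.52 and 2.96 FPKM in undeprived libraries (log2 change 1.14, SE 0.09, limma adjusted p = 1.92e-06), and at 1.47, 2.97 and 4.61 FPKM in OGD libraries, against 0.409, 0.902 and 1.06 FPKM in undeprived libraries (log2 change 1.31, SE 0.08, limma adjusted p = 2.48e-07). Both were higher in every OGD library, and the survival gene Bcl2 fell by 0.52 on the log2 scale with overlap. Lysosome and autophagy genes rose in 12 of 39 cases and fell in 2, with Gla and Gusb among the separated ones, but median-of-ratios scaling gave 3 rises and 4 falls, so no direction is drawn for the list (18 higher and 3 lower without BMSC replicate 2). Proteasome subunits were called higher in 2 of 31 cases (15 without BMSC replicate 2), and core clock genes rose in 3 and fell in 3 of 16 (3 higher and 6 lower without it). Antigen processing genes were called higher in 4 of 18 cases, and without BMSC replicate 2 there were 9 higher and 1 lower. The contrast within shRac1 called 1 higher and 1 lower (median -0.24), and that within shLuci 8 higher and 1 lower (median 0.46). Of 20 oxidant enzymes 4 were higher and 3 lower, and 11 higher and 5 lower without BMSC replicate 2. Of 9 adipogenic genes 2 were higher and 1 lower (3 higher and 2 lower without it), and of 12 mitochondrially encoded genes 2 were higher (4 without it). Of 21 matrix glycoproteins 5 were higher and 5 lower (5 higher and 9 lower without it), and of 20 proteases and their inhibitors 4 were higher and 6 lower (6 higher and 8 lower without it). Over all genes tested 18.7% were called higher and 8.01% lower, and without BMSC replicate 2 the calls were 3878 higher and 1705 lower of 11515. List counts near these shares are not read as results about the list.

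**Figure D4:**
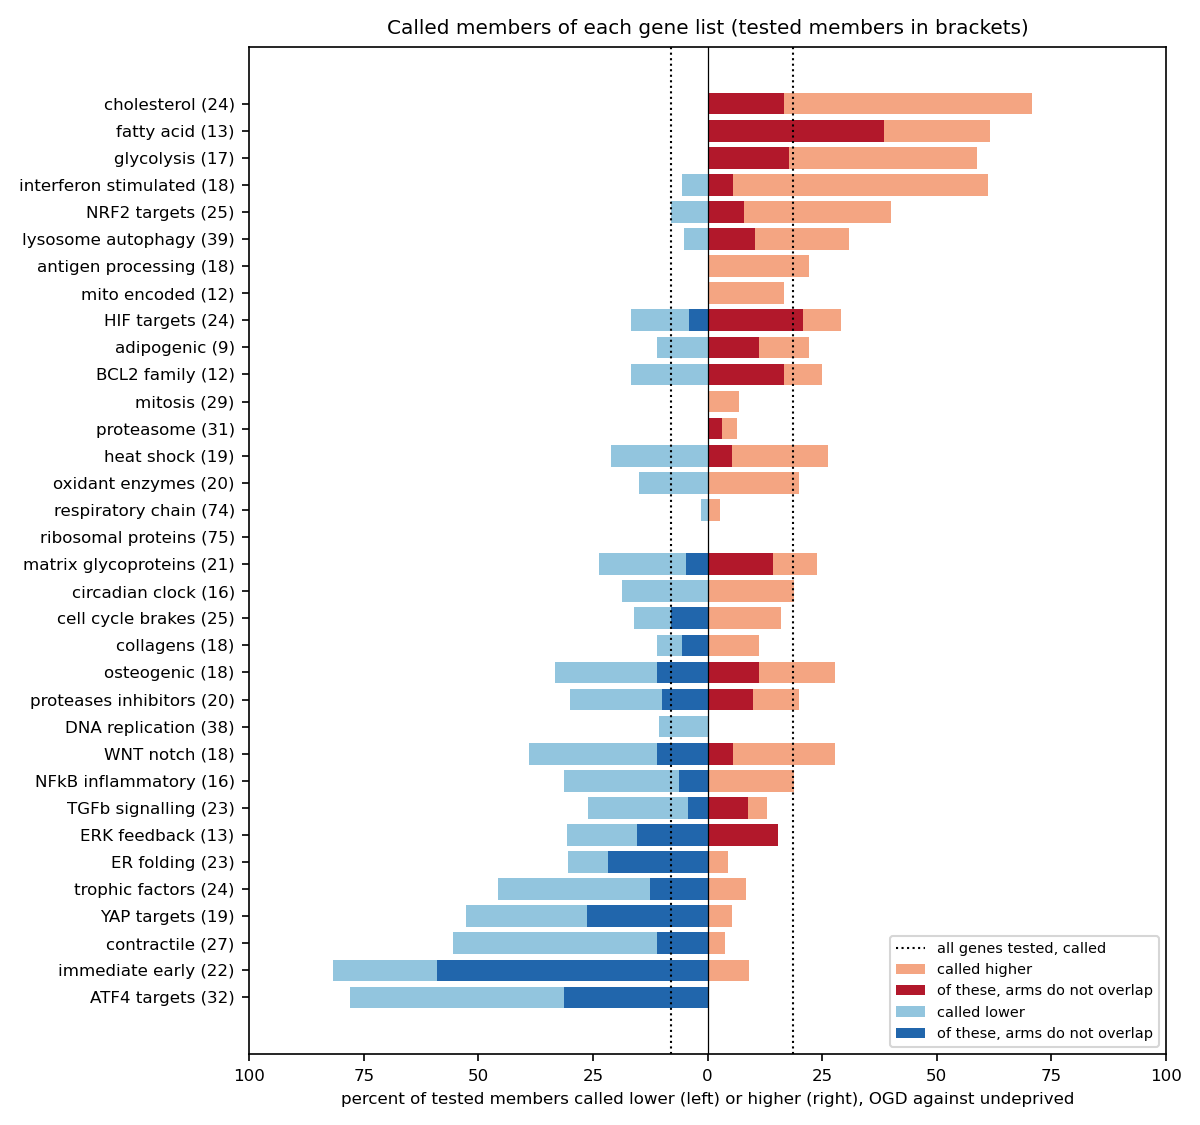
Percent of each list's tested members called higher (right) or lower (left) after OGD, with the non-overlapping ones darker and dotted lines at 18.7% higher and 8.01% lower, the shares of all genes tested. Immediate early genes and ATF4 targets reach furthest left and cholesterol, fatty acid, interferon-stimulated and glycolysis genes furthest right, while ribosomal proteins have no bar.

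How far the 2 hairpin titles shared the response was examined with contrasts that have no library in common. Within the libraries labelled shRac1 1376 genes were called (11.9%), of which 894 were higher (7.76%) and 482 lower (4.19%). Within shLuci 2564 genes were called (22.3%), with 1507 higher (13.1%) and 1057 lower (9.18%). In both, 342 genes (2.97%) were called in the same direction, 201 higher (1.75%) and 141 lower (1.22%). A further 370 genes were called in both in opposite directions, so same-direction calls did not outnumber opposite ones. Across genes the 2 sets of changes had a Pearson r of -0.08 and a Spearman rho of 0.0072, given as a description since genes are not independent replicates. Of the 714 separated genes, 250 (35.0%) were called within both titles in the same direction, which is 73.1% of the 342, and 148 were called within neither. A separated gene moves in the same direction within both titles by its definition, and the same libraries enter both counts. This overlap is therefore no evidence of a shared response. The change differed between the titles for 165 of the 714 by the interaction term (1922 of all genes, 16.7%), and it was larger within shLuci for 136 of these. Leaving out BMSC replicate 2, which is in neither contrast but adds to the pooled spread, gave 1085 genes called in both in the same direction.

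Some genes moved by nearly the same amount under each title. Differences are the change within shRac1 minus that within shLuci. Btg2 changed by -1.25 within shRac1 and -1.32 within shLuci (difference 0.07, SE 0.11, limma adjusted p = 0.799), Fosb by -3.36 within shRac1 and -3.50 within shLuci (difference 0.15, SE 0.18, limma adjusted p = 0.725), and Ankrd34a by 1.28 within shRac1 and 1.16 within shLuci (difference 0.12, SE 0.15, limma adjusted p = 0.718). A difference that misses the threshold does not show that the changes were equal. Fos had a deeper fall within shRac1, at -4.86 on the log2 scale, than within shLuci, at -3.50 (difference -1.36, SE 0.11, limma adjusted p = 2.25e-06). Olfm1 rose less within shRac1 (0.83) than within shLuci (3.74; difference -2.91, SE 0.19, limma adjusted p = 3.04e-07), and Tgfbi had a change of 0.12 within shRac1 and 2.65 within shLuci (difference -2.53, SE 0.10, limma adjusted p = 6.46e-09). For Tgfbi the change within shRac1 was not called. A loss of Rac1 was not shown in the libraries labelled shRac1, so these differences go by the titles.

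**Figure D5:**
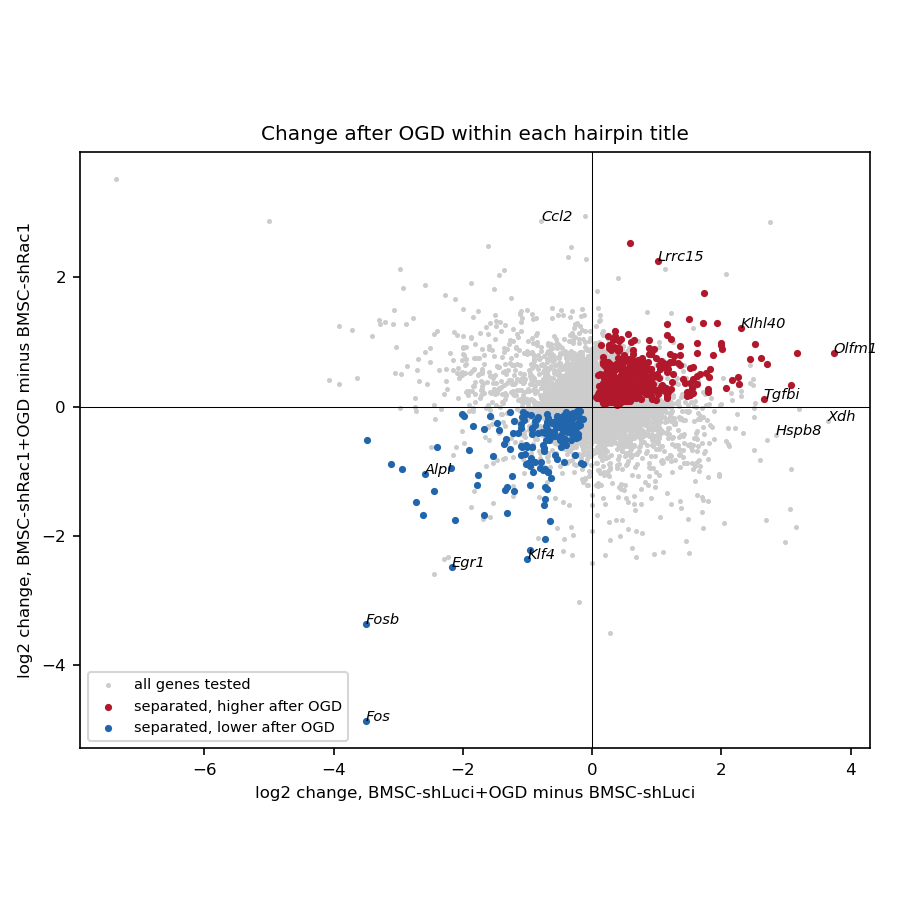
Log2 change after OGD within the shLuci titles (horizontal) and within the libraries labelled shRac1 (vertical), 1 point per gene, grey for all genes tested and coloured for separated genes, red higher and blue lower. Fos, Fosb and Egr1 lie far down and left on both axes, whereas Xdh and Ccl2 lie near or beyond 0 on one of them.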

How the data were processed

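RNA of 15 libraries from rat bone marrow mesenchymal stem cells was sequenced with standard Illumina protocols, per the labels. The submitters' processing notes name StringTie 1.2.3 and, with no version, HISAT2. Per the file headers, the authors deposited FPKM of 12169 genes with Ensembl rat identifiers in each library, on a build that the sources used here do not give. No counts were used, so read depth stays unknown and counting error has no interval here. The deposited lists of changed genes were not used.

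A gene was tested if 3 or more libraries reached 1 FPKM (11515 kept, 654 removed). FPKM were taken without further scaling as log2(FPKM + 0.5), which understates changes of low genes. All 15 libraries entered a single fit of 5 group means with limma 3.58.1 in R 4.3.3 (eBayes with trend, 10 residual degrees of freedom), and the contrast was the mean of 6 OGD libraries minus the mean of 9 undeprived libraries. The two-sided p-values carry a Benjamini-Hochberg adjustment over all genes tested. The contrasts within a hairpin title and their difference come from the same fit, and every p-value called a limma adjusted p does too. Exact permutation tests over the libraries were added for Rac1, between the arms and between the hairpin titles. Promoter windows and their motif matches come from the RefSeq table of build GRCr8, in which no coordinate is shared with the deposited table.

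Genes named are Rac1, the top 12 separated genes in each direction by log2 change among those with a symbol and a mean of at least 5 FPKM in the higher arm, the 5 per direction with the widest gap, and up to 3 called members of each of 34 gene lists and 7 marker lists with the smallest p, separated ones first. Further list members are named with their log2 change as examples chosen after their values were seen. Results of some single genes are not reported here, while the list counts include them. Members and lists were chosen with earlier results of these data known. The fit was also tested on simulated data with known changes. The alternatives tried were 3 other scalings (common total, median of ratios, quantile), pseudocounts of 1 and 0.1, testing without a filter or at a mean of 5 FPKM or more, a fit of 2 arms, a replicate block, infected groups only, a fit with no trend, library weights, and leaving out each library in turn. A fit of 2 arms and a median-of-ratios scaling without BMSC replicate 2 were added after seeing the data.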

Additional observations from a re-analysis of the deposited data

Results flagged for a closer look

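For 75 of the 122 named genes the change after OGD within the libraries labelled shRac1 differed from that within shLuci by the interaction term of the limma fit, with adjusted p-values between 1.42e-09 and 0.0454. Over all genes tested, 1922 (16.7%) had such a call. Named genes were chosen from these same data by size and p-value, so their share is not a result about them. The values in brackets are the change within shRac1 minus the change within shLuci, on the log2 scale, and the shRac1 title rests on the labels since a loss of Rac1 was not shown there. In 24 genes the estimates within the titles had opposite signs. Among these, the value was negative for Xdh (-3.87), Hspb8 (-3.29), Abcc9 (-3.23), Kcnj8 (-2.53), Des (-2.43), Aox1 (-2.15), Gsta1 (-1.99), Psmb8 (-1.86), Bid (-1.52), Tapbpl (-1.11), Ciart (-1.08), Tapbp (-1.02), Col16a1 (-0.78), Sdha (-0.62), Mt-nd4 (-0.56), Cebpa (-0.54) and Atp5a1 (-0.44). It was positive for Ccl2 (3.66), Sod3 (3.20), Lpl (2.94), Cryab (2.87), Ccl7 (2.38), Plk3 (1.19) and Ccne1 (0.79).

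In 51 genes both estimates had the same sign. Rises and falls here go by the sign of the estimate, and not all were called under both titles. Those not called within shRac1 include Gas6, Flt1, Cxcl1, Tgfb3, Cxcl12, Acta2, Car9, Cyr61, Tagln and Dlc1. For Herpud1 the change within shLuci was not called. Genes higher after OGD with the smaller rise within shRac1 were Olfm1 (-2.91), Tgfbi (-2.53), Gja4 (-2.05), Lyve1 (-1.85), Bcl2l11 (-1.79), Itgax (-1.76), Ptprn (-1.70), Csdc2 (-1.54), Adra2a (-1.52), Bmf (-1.24), Itga5 (-1.11), Klhl40 (-1.09), Sfrp4 (-1.02), Parp9 (-0.78), Irf1 (-0.68), Mmp11 (-0.64), Cd14 (-0.56), Spp1 (-0.48), Ndrg1 (-0.47) and Gusb (-0.43). Higher genes with the larger rise within shRac1 were Lrrc15 (1.25), Adamts4 (0.74), Ddit4 (0.60) and Dusp6 (0.39). Lower genes with the shallower fall within shRac1 were Parm1 (2.97), Nov (2.22), Gas6 (1.84), Bmp4 (1.77), Flt1 (1.58), Alpl (1.55), Cxcl1 (1.55), Tgfb3 (1.43), Cxcl12 (1.31), Gria2 (1.23), Acta2 (0.98), Pln (0.95), Car9 (0.91), Cyr61 (0.85), Tagln (0.81), Dlc1 (0.74), Dusp14 (0.67), Col6a2 (0.51), Hbegf (0.50), Smtn (0.41), Amotl2 (0.35) and Nkd2 (0.31). Lower genes with the deeper fall within shRac1 were Fos (-1.36), Klf4 (-1.35), Atf3 (-1.30), Ppp1r15a (-0.70) and Herpud1 (-0.69).

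A single library stood far from the rest of its arm in 11 cases among the 122 named genes, each with 2 arms. Chance alone marks about 1 in 20 arms in this way, so the cases are listed as a description and not as results. BMSC-shLuci+OGD replicate 1 was lowest of the OGD libraries in Nptxr (34.3 FPKM) and Fbln1 (20.8 FPKM) and highest in Mt-nd4 (1454 FPKM). BMSC-shRac1+OGD replicate 2 was highest in Igf1 (0.253 FPKM), and BMSC-shRac1+OGD replicate 3 in Flt1 (0.192 FPKM). Among undeprived libraries BMSC replicate 2 was highest in Tagln (4295 FPKM) and Ndufa13 (44.8 FPKM) and lowest in Pkm (397 FPKM), Acsl3 (29.9 FPKM), Plin2 (13.4 FPKM) and Alcam (11.3 FPKM), the library that also stood apart in its FPKM sum.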

How the results depend on the processing

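The 121 named genes other than Rac1 and the counts were recomputed under each alternative, with 98 of these genes tested at a mean of at least 5 FPKM. For named genes 3395 recomputed values kept both direction and side of the threshold, 91 kept the direction only and 0 reversed; 160 list counts moved by over 1.5 times and 1029 did not. Pseudocounts of 1 and 0.1, no filter on low values, rescaling to a common total and no trend kept each count of genes within 1.5 times. A mean of at least 5 FPKM, which tests fewer genes, gave 1918 called (1296 higher), 475 separated (332 higher) and 201 called within both hairpins. Median-of-ratios scaling gave 1251 higher and 1429 lower, and 259 and 351 separated. Quantile normalization gave 1342 higher and 1425 lower, and 275 and 298 separated. These scalings left a smaller shift of the median over all genes. A fit of 2 arms gave 1519 called (1111 higher, 408 lower). Infected groups alone gave 4820 called (1624 lower) and 1269 separated (863 higher, 406 lower), and library weights, whose estimate stopped before full convergence, gave 7275 (5026 higher, 2249 lower) and 2255 within both hairpins; for these 3 the cause was not tested.

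Leaving out a library in turn gave 2436 to 5583 called genes (1683 to 3878 higher, 728 to 1705 lower), 684 to 1016 separated genes (508 to 730 higher, 175 to 286 lower) and 227 to 1085 called within both hairpins, with the highest values without BMSC replicate 2 and 227 without BMSC-shRac1+OGD replicate 1. The Rac1 log2 change stayed between 0.0099 and 0.063, and it was -0.07 under median-of-ratios scaling. Rac1 was called under none of the alternatives run. Without BMSC replicate 2, a fit of 2 arms gave 284 separated lower genes, and median-of-ratios scaling gave 5023 called, 2587 of them lower, and 502 separated lower genes. Both were chosen after seeing the data.

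Replicate numbers did not pair the libraries: deviations of same-numbered libraries correlated between -0.638 and 0.560 over 30 same-numbered pairs, with a median of -0.022. With the number as a replicate block, 2910 genes were called (2043 higher, 867 lower), 702 were separated and 293 were called within both hairpins. The depth behind the FPKM is unknown, so no counting error can be set beside a value.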

Other observations

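Abcc9 and Kcnj8, which encode the subunits of an ATP-sensitive potassium channel of vascular mural cells, were both called higher over the arms although their arms overlapped. Abcc9 stood at 10.9, 17.7 and 26.1 FPKM in OGD libraries, against 1.74, 5.17 and 13.1 FPKM in undeprived libraries (log2 change 1.70, SE 0.14, limma adjusted p = 2.04e-06), and Kcnj8 at 3.95, 5.66 and 7.89 FPKM in OGD libraries, against 1, 1.92 and 5.47 FPKM in undeprived libraries (log2 change 1.05, SE 0.08, limma adjusted p = 1.93e-06). The highest undeprived libraries of both were those labelled shRac1. Within the libraries labelled shRac1 the changes were -0.03 for Abcc9 and -0.32 for Kcnj8, neither of them called, and within shLuci they were 3.20 and 2.21.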
